A study of Mus musculus with 6 samples.

Results

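The genes described here encode chromatin modifiers and remodellers, the proteins that write, erase or read chemical marks on histones and DNA, or that slide and exchange nucleosomes. They were chosen by symbol alone, as every gene of the deposited count table whose symbol begins with a family prefix (Kdm, Arid, Chd, Hdac, Smarc, Brd, Brpf, Phf, Setd, Kat, Tet, Jarid, Ezh, Dnmt, Mbd, Sirt, Ncoa, Ncor, Asxl, Cbx, Pcgf, Suv, Nsd, Ehmt and Prmt), leaving out Kdm6a. The rule found 55 of the 4162 genes in the table, and it matches 177 protein-coding genes of the GENCODE M21 annotation, so 31.1% of the families were listed. Many well-known members, among them Ezh2, Dnmt1, Dnmt3b, Tet2, Tet3, Hdac1, Sirt1, Smarca4, Arid1a, Chd4 and Kdm6b, were not analysed here.

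The libraries came from naive CD4+ T cells that were isolated magnetically from mouse spleens and then stimulated for 48 h with anti-CD3 on the plate and anti-CD28 in solution. One group, WT, had 3 B6 mice with intact UTX, and the other, UTX TCD, had 3 B6 mice without UTX in their T cells. The sources used here do not give the driver of the deletion, the exons removed or the age and sex of the mice. The comparison asks which genes change when activated CD4+ T cells lack UTX.

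UTX, the product of Kdm6a, takes methyl groups off lysine 27 of histone H3. Polycomb repressive complex 2 writes that mark, Polycomb repressive complex 1 binds it, and both keep genes silent, while acetyltransferases, SWI/SNF remodellers and Trithorax-type methyltransferases act at active genes. In T cells this machinery is known for setting which cytokine and lineage genes can be switched on after activation, and DNA methylation by Dnmt3a and its removal by Tet enzymes take part in it.

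The table is a selection. Among 4118 genes tested, 20 had a log2 fold change within 0.1 of 0, where a table of all expressed genes would be densest, so the listed genes had been picked on the genotype difference by a rule the sources used here do not give. A count of changed members therefore describes the table and is no independent evidence of change. Column totals over the listed genes ran from 8363326 to 10288306 counts, and levels are given in CPM, a gene's share of the listed counts after TMM scaling, in the order of replicates 1, 2 and 3. UTX TCD replicate 2 stood apart: it lay farthest of its group from the WT mean in 39 of 54 tested chromatin genes (72.2%) and in 70.6% of all tested genes. Of 11 CD4+ T cell markers, Lck and Cd28 were listed and both were abundant in every library, Lck with 1535, 1489.7 and 1496 CPM in WT and 1348, 1360.1 and 1416 CPM in UTX TCD and Cd28 with 849, 1004 and 1092 CPM in WT and 1634, 1854 and 1753 CPM in UTX TCD (0.83 ± 0.11 on the log2 scale), while Cd4 and the Cd3 genes were not analysed here. None of 8 B cell, 11 myeloid, 5 erythroid and 4 platelet markers was in the table, so these cells were not analysed here. The CD8 T cell marker Cd8b1 was at 11.6, 14.5 and 12.8 CPM in WT and 31.5, 56.2 and 40.8 CPM in UTX TCD libraries (1.72 ± 0.24 on the log2 scale, edgeR adjusted p = 0.0023), and its partner Cd8a was not analysed here. Of 5 NK cell markers 2 were listed and summed to 23.0 to 59.4 CPM in WT and 25.7 to 53.5 CPM in UTX TCD libraries, most of it Eomes, which did not pass (0.13 ± 0.41). The other, Klrd1, was low and called higher, with 1.09, 1.30 and 1.82 CPM in WT and 2.77, 4.33 and 3.96 CPM in UTX TCD libraries (1.40 ± 0.36, edgeR adjusted p = 0.015). Their part in the results below was not tested, and in bulk RNA fewer cells of a type and less RNA per cell cannot be told apart.

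Kdm6a, the targeted gene, had 286, 281 and 281 CPM in WT and 188, 207 and 179 CPM in UTX TCD libraries. The groups did not overlap, and the log2 fold change of UTX TCD over WT was -0.56 ± 0.09 (± gives the standard error, here and for every fold change below; edgeR adjusted p = 0.0029). The gene lies on chromosome X from 18162575 to 18279936 in GRCm38, and its counts are over the whole gene, so they do not show which exons were lost.

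Most listed chromatin genes were higher in UTX TCD cells, and the differences were small. Of 54 tested members, 34 rose (63.0%), 5 fell (9.26%) and 15 did not pass an edgeR adjusted p of 0.05. Over all genes tested 41.1% were called higher and 27% lower. The counts by role given below cover few genes each and are to be read beside these shares. In either direction 39 members were called (72.2%), against 68.1% of all genes. The median log2 fold change was 0.35 among the members and -0.15 over all genes. As few listed genes lie near 0, a median falls to one side of that gap and depends on the share of positive fold changes. That share was 70.4% among the members and 46.6% over all genes. The median size of the log2 fold change, without its sign, was 0.38 among the members and 0.45 over all genes. Only Kdm4d, which rose, and Hdac9, which fell, were called with a difference of at least 2-fold, where 12.9% of all genes were called at least 2-fold higher and 6.63% at least 2-fold lower. Kdm4d passed the low-count filter only through its UTX TCD counts, so it could not have been called lower. The 34 risen members had a median log2 fold change of 0.48, against 0.67 for all genes called higher. In 46 of 54 members the groups did not overlap, where the share over all genes was 85.8%. The count moved with the WT libraries and with the scaling. Where several replicates are named as left out, here and below, each was left out alone. Without WT replicates 1, 2 and 3 the count became 16 higher and 2 lower, 13 and 2, and 25 and 3 members. Calls over all genes fell too, from 1692 higher and 1111 lower to 812 and 402, 730 and 351, and 1195 and 544. Calls lost without a WT library, here and below, are thus not particular to the members. The members' count was 36 and 6 without UTX TCD replicate 2, at a median of 0.31. Leaving out UTX TCD replicate 1 or 3 gave 7 lower members each time, with 36 and 31 higher. Of the called members 87.2% were higher with TMM scaling and 75% (30 higher, 10 lower) with gap-centred scaling, which shifts every fold change so that the empty stretch near 0 sits at 0.

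**Figure D1:**
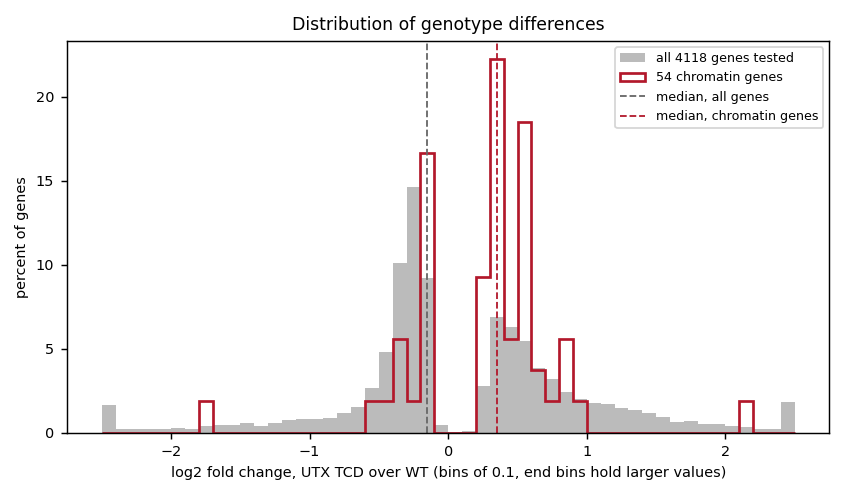
Percent of genes (vertical axis) by log2 fold change of UTX TCD over WT (horizontal axis, bins of 0.1), for all 4118 tested genes in grey and the 54 tested chromatin genes in red, with dashed lines at the medians of -0.15 and 0.35. The grey bars leave a gap near 0, and most chromatin genes lie to its right.

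**Figure D2:**
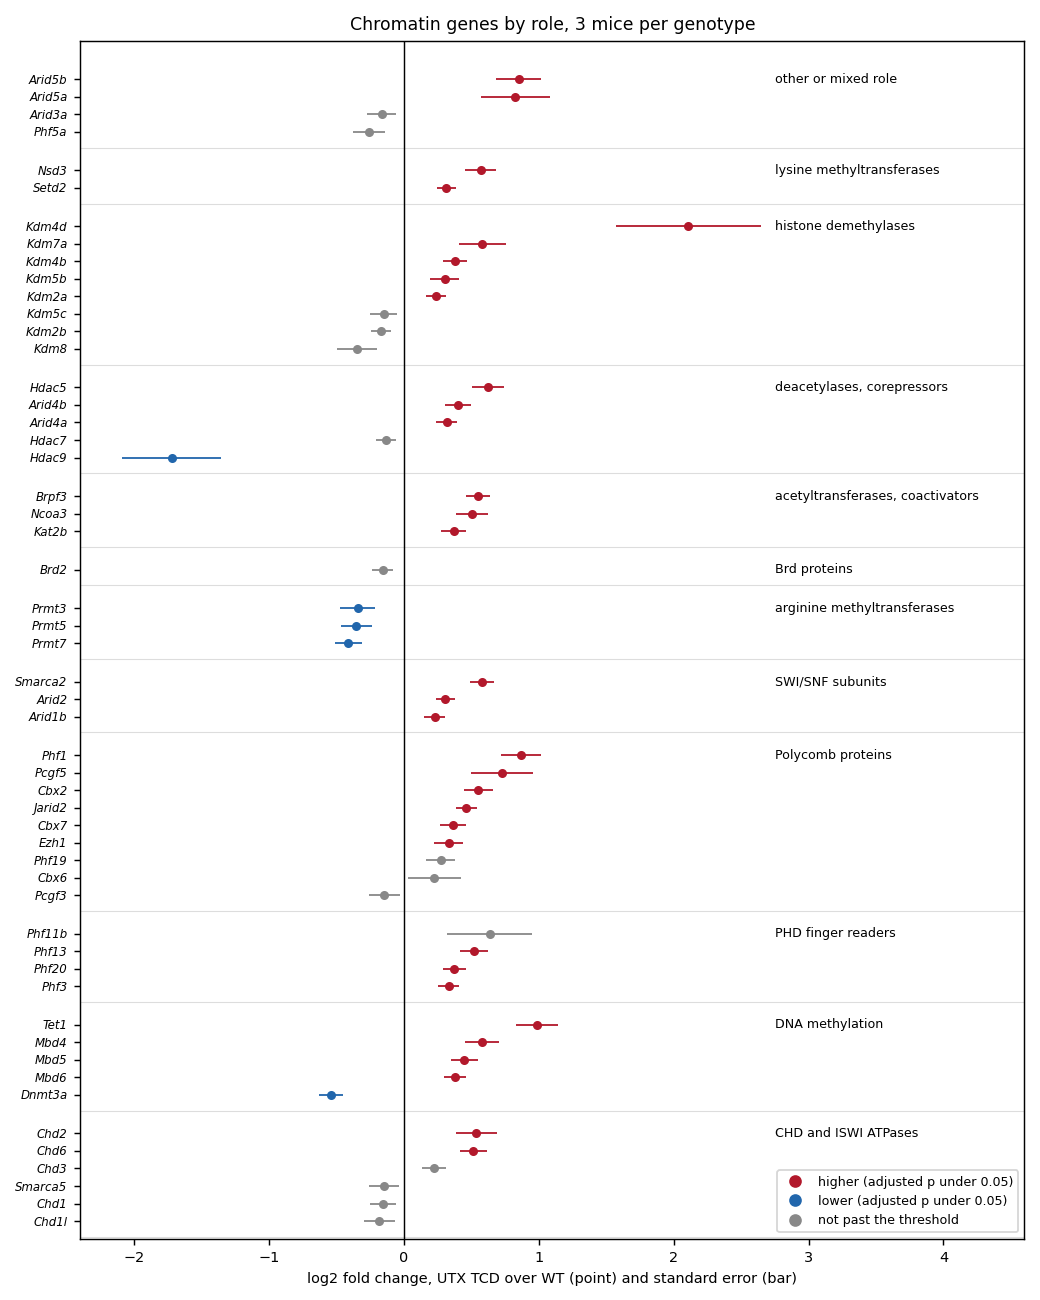
Log2 fold change of UTX TCD over WT (points) with its standard error (bars) for each chromatin gene tested and reported by name, 3 mice per genotype, grouped by role and coloured by the call. Polycomb, SWI/SNF, acetyltransferase and PHD finger genes lie mostly to the right of 0 and the 3 arginine methyltransferase genes to the left.

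Tet1 and Dnmt3a, the listed genes whose enzymes oxidise and set DNA methylation, moved in opposite directions. Tet2, Tet3, Dnmt1 and Dnmt3b were not analysed here, so this describes single genes and not the pathway. Per kb of exon, Tet1 was at 1.55 and Dnmt3a at 78.0 CPM in WT. Tet1, a dioxygenase that oxidises methylated cytosine as a step towards its removal, rose, and Dnmt3a, the methyltransferase that sets new DNA methylation, fell. Of 5 tested members of this role, 4 rose and 1 fell, with none short of the threshold. Tet1, on chromosome 10, had 20.2, 25.5 and 26.0 CPM in WT and 48.9, 43.2 and 49.9 CPM in UTX TCD libraries. Its lowest UTX TCD library was above the highest WT library, and the log2 fold change was 0.99 ± 0.15 (edgeR adjusted p = 0.0032). Dnmt3a, on chromosome 12, had 1282, 1368 and 1245 CPM in WT and 956, 818 and 899 CPM in UTX TCD libraries, again without overlap (-0.54 ± 0.09, edgeR adjusted p = 0.0038). The other 3 carry methyl-CpG-binding domains. Mbd4, a glycosylase that excises thymine from mismatches left by deaminated methylcytosine, went from 51.5, 49.5 and 60.3 CPM in WT to 74.0, 88.9 and 78.1 CPM in UTX TCD libraries (0.58 ± 0.12, edgeR adjusted p = 0.0084). Mbd5 and Mbd6, partners of a histone H2A deubiquitinase, rose by 0.45 ± 0.10 and 0.38 ± 0.08. These calls held whichever library was left out, apart from that of Mbd6, which was lost without WT replicate 2 (0.34). With the length and GC correction Mbd6 was at 0.11 and not past the threshold.

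The start regions of Tet1, Dnmt3a and the deacetylase gene Hdac9, which fell, differ widely in CpG, the substrate of DNA methylation, and are shown for that reason. Sequences are from RefSeq on GRCm38.p6, from the first start listed for each gene, read 5′ to 3′ on the gene's strand up to the start or to the first annotated exon, with CG dinucleotides in capitals. They lie at chr10:62887513-62887574 (minus strand) for Tet1, chr12:3806730-3806979 (plus strand) for Dnmt3a and chr12:34917096-34917345 (minus strand) for Hdac9.
Tet1: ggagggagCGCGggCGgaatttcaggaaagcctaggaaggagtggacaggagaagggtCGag
Dnmt3a: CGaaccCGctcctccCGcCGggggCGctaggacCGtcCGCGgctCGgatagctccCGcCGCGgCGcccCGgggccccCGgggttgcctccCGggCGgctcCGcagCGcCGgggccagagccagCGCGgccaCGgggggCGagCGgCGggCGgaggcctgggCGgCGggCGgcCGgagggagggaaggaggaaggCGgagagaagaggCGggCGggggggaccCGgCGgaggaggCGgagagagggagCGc
Hdac9: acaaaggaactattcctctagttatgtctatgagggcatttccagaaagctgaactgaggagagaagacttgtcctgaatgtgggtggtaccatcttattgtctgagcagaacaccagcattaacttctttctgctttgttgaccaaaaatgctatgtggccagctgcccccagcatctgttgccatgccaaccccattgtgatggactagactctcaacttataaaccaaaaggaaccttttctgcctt
Dnmt3a held 38 CG in 250 bases, Tet1 4 in 62 and Hdac9, described below, 0 in 250. RefSeq start windows, from 250 bases before to 50 after each start, were found for 41 of 55 members. The Tet1 stretch shown is only the outer part of its window, which held 17 CG. The 3 windows of Dnmt3a held 46, 47 and 18 CG and the 2 of Hdac9 held 3 and 0. Which start these cells use was not tested. The 57 windows of the tested members held a median of 24 CG, those of all tested genes 20 and all windows of the genome 7. The core HIF motif, ACGTG or GCGTG on either strand, was in 57.9% of the members' windows, 62.4% of those of tested genes and 43.8% of all. The E-box CACGTG, which contains that core, was in 8.77%, 10.7% and 7.15%. The members' shares were thus near those of the other tested genes, and a match is a description of letters, not of a bound site.

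Polycomb genes were the largest role and leaned upward, with 7 of 10 tested members higher, none lower and 3 not past the threshold. Of all tested members 63.0% were higher, and of all tested genes 41.1% were higher and 27% lower. The risen Polycomb members come from both repressive complexes. In complex 2, Ezh1, an H3K27 methyltransferase, had 68.3, 70.0 and 68.0 CPM in WT and 76.6, 92.9 and 89.9 CPM in UTX TCD libraries (0.33 ± 0.11, edgeR adjusted p = 0.028). Its accessory subunit Phf1, a reader of methylated H3K36, had 20.3, 21.6 and 19.8 CPM in WT and 34.3, 42.0 and 35.9 CPM in UTX TCD cells, the largest rise among Polycomb members. Jarid2, which helps complex 2 reach its targets, went from 272, 271 and 276 CPM in WT to 386, 353 and 391 CPM in UTX TCD libraries. Phf1 and Jarid2 kept their groups apart and their calls whichever library was left out, at log2 fold changes of 0.86 ± 0.15 and 0.46 ± 0.08. The related accessory gene Phf19 had 116, 121 and 129 CPM in WT and 149, 129 and 164 CPM in UTX TCD libraries with overlapping groups (0.27 ± 0.11, edgeR adjusted p = 0.054), and passed without UTX TCD replicate 2 (0.35) and with RLE scaling (0.31), upper-quartile scaling (0.35) or DESeq2 (0.32). Of the genes for chromodomain subunits, by which complex 1 binds the mark, Cbx2 had 67.8, 63.3 and 77.2 CPM in WT and 96.0, 101 and 108 CPM in UTX TCD libraries (0.55 ± 0.11, edgeR adjusted p = 0.0066). Cbx7 rose by 0.36 ± 0.10, and Cbx6 was at 0.22 ± 0.20 (edgeR adjusted p = 0.29) with 224, 356 and 375 CPM in UTX TCD libraries, replicate 1 being below every WT library. Pcgf5, a RING-finger subunit of a variant complex 1, had 276, 245 and 273 CPM in WT and 388, 615 and 311 CPM in UTX TCD libraries, highest in UTX TCD replicate 2, and its paralog Pcgf3 was at -0.15 ± 0.12 (edgeR adjusted p = 0.25). Pcgf5 rose by 0.73 ± 0.23, or 0.39 without UTX TCD replicate 2. Without WT replicates 1 and 2 the call of Cbx7 (0.33 and 0.31) was lost. That of Pcgf5 was lost without any 1 WT library (0.75, 0.67 and 0.74), as was that of Ezh1 (0.32, 0.34 and 0.32), whose call also ended in the gap-centred fit (0.26) and in that leaving out UTX TCD replicate 3 (0.30). Cbx6 passed without UTX TCD replicate 1 (0.43). Cbx7 was 0.23 with the length and GC correction. Exons of Phf1 share 39.3% of their bases with Cuta on the other strand, which was at 0.33 ± 0.11. The sources used here do not say whether the counting used strand.

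**Figure D3:**
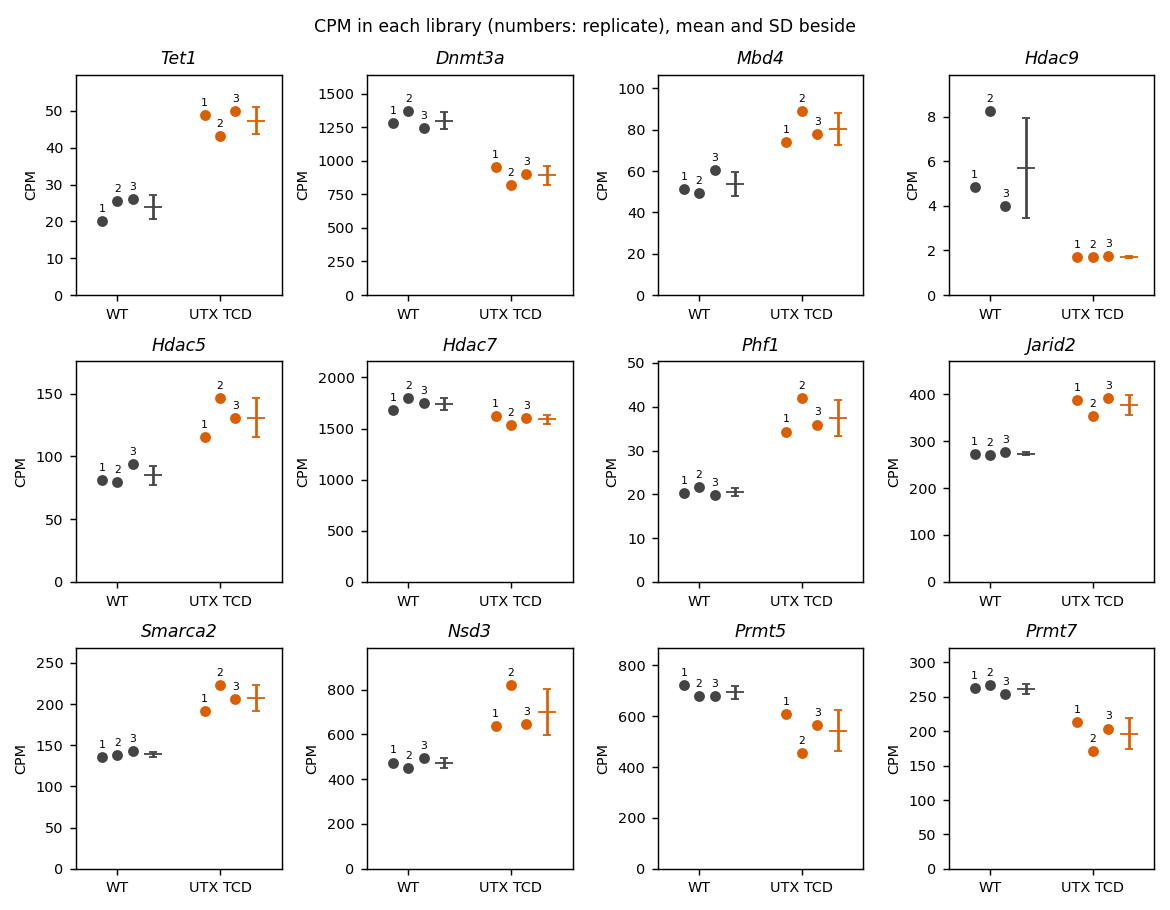
CPM (vertical axes, starting at 0) in each library of 12 chromatin genes, WT in grey and UTX TCD in orange, with the replicate number above each point and the mean and SD of 3 mice beside them. In each of the 12 genes the genotypes do not overlap, and the difference is small for Hdac7, which did not pass the threshold.

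Among histone demethylases other than Kdm6a, 5 of 8 rose, none fell and 3 did not pass. Kdm4d, which acts on H3K9, was barely expressed, with counts of 5, 3 and 5 in WT and 14, 30 and 12 in UTX TCD libraries, and had the largest log2 fold change of all members at 2.11 ± 0.54 (edgeR adjusted p = 0.015). Kdm7a, which removes dimethyl marks from H3K9 and H3K27, had 144, 137 and 144 CPM in WT and 208, 269 and 159 CPM in UTX TCD libraries, with replicate 2 highest (0.58 ± 0.17, edgeR adjusted p = 0.023). Kdm4b, an H3K9 demethylase known as a hypoxia-inducible gene, went from 115, 109 and 126 CPM in WT to 144, 155 and 155 CPM in UTX TCD libraries (0.38 ± 0.09, edgeR adjusted p = 0.012). Paralogs differed in their calls. The H3K4 demethylase gene Kdm5b rose by 0.30 ± 0.11, while the X-linked Kdm5c was at -0.15 ± 0.10 (edgeR adjusted p = 0.18) with overlapping groups. Kdm2a, an H3K36 demethylase, rose by 0.24 ± 0.07, while Kdm2b, which brings a variant Polycomb complex 1 to CpG islands, was at -0.17 ± 0.07 (edgeR adjusted p = 0.068) with 603, 602 and 598 CPM in WT and 559, 521 and 524 CPM in UTX TCD libraries. Kdm8, which encodes a JmjC-domain protein, was at -0.35 ± 0.15 (edgeR adjusted p = 0.063). The 5 rises depended on the WT libraries. Calls were lost without WT replicates 1 and 2 for Kdm4b (0.36 and 0.33) and Kdm4d (2.16 and 1.91), and without WT replicates 1, 2 and 3 for Kdm7a (0.59, 0.55 and 0.59), Kdm5b (0.32, 0.29 and 0.28) and Kdm2a (0.24, 0.24 and 0.22), the last also without UTX TCD replicate 3 (0.21). Kdm7a was 0.36 and Kdm5b 0.17 without UTX TCD replicate 2. With gap-centred scaling, the replicate block and the length and GC correction, the calls of Kdm2a (0.16, 0.24 and 0.19) and Kdm5b (0.23, 0.29 and 0.26) were lost, and Kdm4b was 0.24 with that correction. Kdm2b passed as lower without UTX TCD replicate 1 (-0.20) or 2 (-0.16), after the length and GC correction (-0.26) and gap-centred scaling (-0.24). Kdm8 passed as lower in the gap-centred fit (-0.43) and in that leaving out UTX TCD replicate 3 (-0.48).

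Histone deacetylase genes of class IIa, which shuttle between cytoplasm and nucleus under kinase control, did not share a direction. Hdac5 rose from 81.5, 79.9 and 93.5 CPM in WT to 115, 146 and 131 CPM in UTX TCD libraries (0.62 ± 0.12, edgeR adjusted p = 0.0057). Hdac9 fell from 4.85, 8.24 and 3.97 CPM in WT to 1.69, 1.69 and 1.77 CPM in UTX TCD libraries, each below every WT library (-1.72 ± 0.37, edgeR adjusted p = 0.0083). Its counts were low, at 49, 76 and 35 in WT and 14, 16 and 17 in UTX TCD libraries. Hdac7, known for its role in T cell development, had 1682, 1797 and 1746 CPM in WT and 1623, 1537 and 1607 CPM in UTX TCD libraries and did not pass (-0.13 ± 0.08, edgeR adjusted p = 0.13), although its groups did not overlap. The class IV gene Hdac11 was left out by the low-count filter, with counts of 5, 1 and 2 in WT and 7, 19 and 7 in UTX TCD libraries. Arid4a and Arid4b, subunits of the SIN3 corepressor that carries deacetylases to DNA, rose by 0.32 ± 0.08 and 0.40 ± 0.10, giving the role 3 higher and 1 lower of 5 tested members. The calls of Hdac5 and Hdac9 held whichever library was left out. That of Arid4a was lost without WT replicates 1 and 2 (0.30 and 0.31) and that of Arid4b without WT replicates 2 and 3 (0.40 and 0.37). With the length and GC correction Hdac5 was 0.37 and Hdac7 passed as lower at -0.37, as it did with gap-centred scaling at -0.21.

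All 3 listed genes of acetyltransferases and their coactivators rose. Brpf3, a scaffold of a histone H3 acetyltransferase complex, had 95.3, 91.0 and 95.2 CPM in WT and 132, 131 and 149 CPM in UTX TCD libraries (0.55 ± 0.09, edgeR adjusted p = 0.0036). Ncoa3, a steroid receptor coactivator, had 862, 701 and 736 CPM in WT and 1131, 1185 and 941 CPM in UTX TCD libraries (0.50 ± 0.12, edgeR adjusted p = 0.012). Kat2b, the acetyltransferase PCAF, went from 81.7, 75.7 and 80.3 CPM in WT to 98.0, 111 and 98.4 CPM in UTX TCD libraries (0.37 ± 0.09, edgeR adjusted p = 0.015). In none of them did the genotypes overlap. Without WT replicate 2 the calls of Ncoa3 (0.44) and Kat2b (0.33) were lost, and that of Kat2b also without WT replicate 1 (0.39). The 1 listed BET family gene, the acetyl-lysine reader Brd2, had 1282, 1284 and 1264 CPM in WT and 1208, 1074 and 1154 CPM in UTX TCD libraries, without overlap and not past the threshold (-0.16 ± 0.08, edgeR adjusted p = 0.096). It passed as lower after the length and GC correction (-0.34) and gap-centred scaling (-0.23).

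Of the methyltransferase genes outside Polycomb, Setd2 and Nsd3, which act on lysine, rose, and Prmt3, Prmt5 and Prmt7, which act on arginine, fell. The difference between these groups was not tested, and lysine methyltransferase genes that the prefixes do not catch, described at the end, were called in both directions. Setd2, the enzyme of H3K36 trimethylation, was even within each genotype at 542, 542 and 540.3 CPM in WT and 673, 674 and 672 CPM in UTX TCD libraries (0.31 ± 0.07, edgeR adjusted p = 0.0095). Nsd3, which also methylates H3K36, rose from 475, 449 and 496 CPM in WT to 637, 821 and 647 CPM in UTX TCD libraries (0.57 ± 0.12, edgeR adjusted p = 0.0072), highest in UTX TCD replicate 2. On the arginine side, Prmt5, the main enzyme of symmetric dimethylarginine, fell from 723, 681 and 679 CPM in WT to 609.8, 454 and 567 CPM in UTX TCD libraries (-0.35 ± 0.12, edgeR adjusted p = 0.031). Prmt7, which monomethylates arginine, had 263, 267 and 254 CPM in WT and 214, 171 and 204 CPM in UTX TCD libraries (-0.41 ± 0.10, edgeR adjusted p = 0.013). Prmt3, which methylates a ribosomal protein, had 212, 214 and 207 CPM in WT and 184, 134 and 179.9 CPM in UTX TCD libraries (-0.34 ± 0.13, edgeR adjusted p = 0.043). UTX TCD replicate 2 was the lowest library for each of the 3, and without it Prmt3, Prmt5 and Prmt7 had -0.22, -0.25 and -0.33. The fits without WT replicates 1 and 2 lost the calls of Setd2 (0.31 and 0.31) and Prmt7 (-0.41 and -0.40), and those without any 1 WT library lost the calls of Prmt5 (-0.33, -0.37 and -0.37) and Prmt3 (-0.34, -0.34 and -0.36). Prmt3 also did not pass with RLE scaling (-0.30), upper-quartile scaling (-0.27) or DESeq2 (-0.30).

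Nucleosome remodellers were higher in the SWI/SNF family and mixed in the CHD and ISWI families. Smarca2, the ATPase BRM, rose from 136, 138 and 143 CPM in WT to 192, 223 and 206 CPM in UTX TCD libraries (0.58 ± 0.09, edgeR adjusted p = 0.0028), and its call held whichever library was left out. Arid2, a subunit of the PBAF form, and Arid1b, of the BAF form, rose by 0.31 ± 0.07 and 0.23 ± 0.08, so that all 3 listed SWI/SNF genes were called. Of 6 CHD and ISWI genes, 2 rose and 4 did not pass. Chd6 went from 179.7, 173 and 166 CPM in WT to 224, 274 and 242 CPM in UTX TCD libraries (0.51 ± 0.10, edgeR adjusted p = 0.0057), in every leave-one-out fit. Chd2 had 357, 358 and 369.8 CPM in WT and 457, 666 and 452 CPM in UTX TCD libraries (0.54 ± 0.15, edgeR adjusted p = 0.020), and its paralog Chd1, which travels with RNA polymerase, was at -0.16 ± 0.09 (edgeR adjusted p = 0.15). Smarca5, the ISWI ATPase, and Chd1l, a remodeller of damaged chromatin, were at -0.14 ± 0.11 (edgeR adjusted p = 0.23) and -0.18 ± 0.12 (edgeR adjusted p = 0.17) with overlapping groups. Chd3, an ATPase of the NuRD complex, had 914, 957 and 1003 CPM in WT and 1058, 1078 and 1224 CPM in UTX TCD libraries and lay just short of the threshold (0.23 ± 0.09, edgeR adjusted p = 0.052). It passed without UTX TCD replicate 1 (0.27) or 2 (0.24) and with RLE scaling (0.27), upper-quartile scaling (0.30) or DESeq2 (0.27). Chd1 passed as lower without UTX TCD replicate 1 (-0.23). Arid2 lost its call without WT replicates 1 and 2 (0.30 and 0.30). Chd2 lost it without any 1 WT library (0.52, 0.53 and 0.55) and was 0.32 without UTX TCD replicate 2, and 18.4% of its exon bases also belong to 1810026B05Rik. Arid1b kept its call only without UTX TCD replicate 2 (0.25) and had 0.20, 0.24 and 0.24 without WT replicates 1, 2 and 3 and 0.20 and 0.23 without UTX TCD replicates 1 and 3. It was also lost with gap-centred scaling (0.15), the replicate block (0.23) and the length and GC correction (0.13).

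PHD finger genes outside these complexes had 3 higher and 0 lower of 4 tested members. Phf13, a reader of H3K4 trimethylation, went from 72.9, 72.0 and 75.0 CPM in WT to 101, 118 and 96.3 CPM in UTX TCD libraries (0.52 ± 0.10, edgeR adjusted p = 0.0072) and was called in every leave-one-out fit. Phf20, a subunit of an H4K16 acetyltransferase complex, and Phf3, which binds RNA polymerase II, rose by 0.37 ± 0.09 and 0.33 ± 0.08. Without WT replicates 1 and 2 both calls were lost (Phf20 0.37 and 0.35, Phf3 0.31 and 0.33). Phf11b had 70.8, 82.3 and 91.8 CPM in WT and 64.3, 142 and 173 CPM in UTX TCD libraries, with replicate 1 below all WT libraries and the others above them (0.63 ± 0.32, edgeR adjusted p = 0.096). It passed without UTX TCD replicate 1 (0.95) and with DESeq2 (0.68), and was 0.34 without UTX TCD replicate 3. Phf11b belongs to a cluster of similar genes, so its reads are uncertain.

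The prefixes also catch 4 genes with other or mixed roles. Arid5b, a DNA-binding partner of a histone demethylase, rose from 166, 153 and 145 CPM in WT to 261, 353 and 224 CPM in UTX TCD libraries (0.85 ± 0.16, edgeR adjusted p = 0.0062) and was called in every leave-one-out fit. Arid5a, an RNA-binding protein known for stabilising cytokine transcripts, had 180.1, 168 and 183 CPM in WT and 222, 462 and 257 CPM in UTX TCD libraries. UTX TCD replicate 2 was far above the other libraries, and the log2 fold change of 0.83 ± 0.25 (edgeR adjusted p = 0.024) became 0.43 without it. The call of Arid5a was lost without any 1 WT library (0.84, 0.79 and 0.85). Arid3a, a transcription factor, was at -0.17 ± 0.11 (edgeR adjusted p = 0.17), and Phf5a, a subunit of the splicing factor SF3B, at -0.26 ± 0.12 (edgeR adjusted p = 0.074). Phf5a passed as lower in the gap-centred fit (-0.33) and in that leaving out UTX TCD replicate 3 (-0.36).

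The members, like the table as a whole, spread more among UTX TCD mice than among WT mice. The SD of CPM was larger in UTX TCD libraries in 48 of 54 tested members (88.9%) and in 81.9% of all tested genes. The median coefficient of variation was 4.08% in WT and 10.1% in UTX TCD libraries for the members, and 5.97% and 14.3% for all tested genes. Against the WT mean, the median member was 0.30, 0.42 and 0.31 higher on the log2 scale in UTX TCD replicates 1, 2 and 3, while the median of all tested genes was -0.05, -0.14 and -0.09. The median member thus lay above WT in each UTX TCD library, farthest in replicate 2. These medians also depend on the share of genes on each side of the gap near 0. Together the 55 members took 1.82%, 1.84% and 1.84% of the listed counts in WT libraries and 1.99%, 2.09% and 1.99% in UTX TCD libraries. Of 39 called members, 15 (13 higher and 2 lower) kept the call whichever library was left out: Tet1, Mbd4, Mbd5, Dnmt3a, Phf1, Jarid2, Cbx2, Hdac5, Hdac9, Brpf3, Nsd3, Smarca2, Chd6, Phf13 and Arid5b. The matching share over all called genes was not counted, so the list does not set these members apart from other called genes. Without WT replicate 2 alone, calls over all genes fell from 1692 higher and 1111 lower to 730 and 351.

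**Figure D4:**
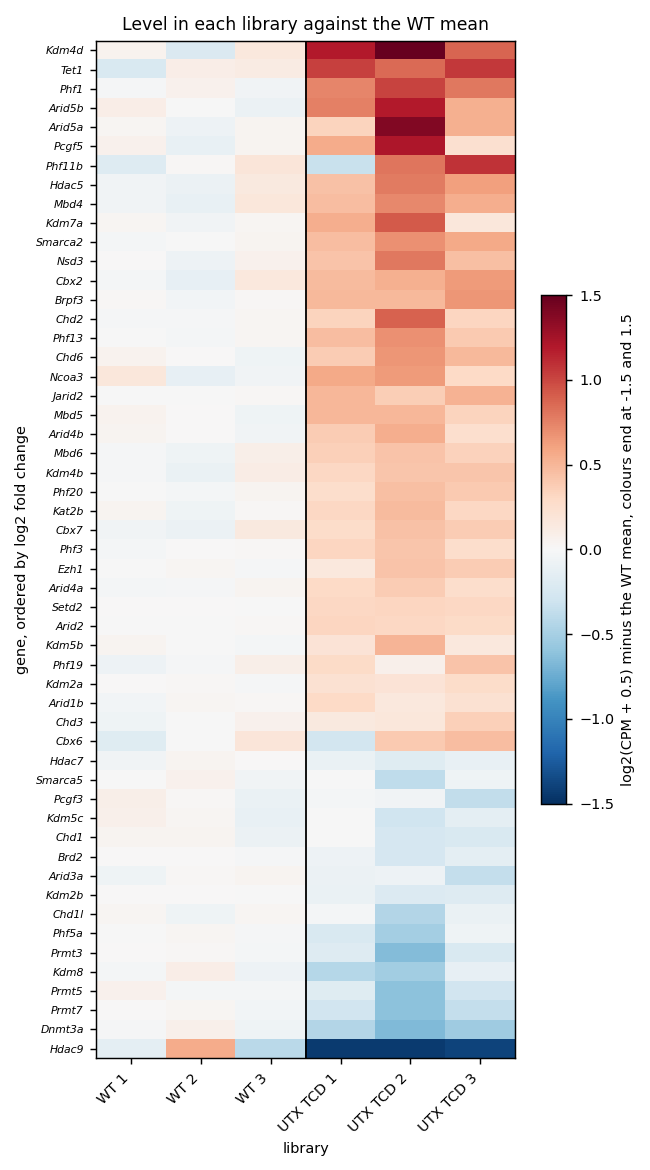
Log2(CPM + 0.5) of each chromatin gene tested and reported by name (rows, ordered by log2 fold change) in each library (columns) as the difference from the WT mean, red above it and blue below. WT columns are mostly pale, less so for Hdac9, with 4.85, 8.24 and 3.97 CPM in WT. UTX TCD replicate 2 lies farthest of its group from the WT mean in 39 of the 54 tested members.

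The direction of the difference went with the WT level of the gene. The WT level is also the base of the fold change, so a low WT level and a rise are tied in part beforehand. Genes too low in WT for the low-count filter, down to a level of 0, were tested only through UTX TCD libraries. Such genes could only be called higher. The division by level is therefore a description, for the members and for all genes alike. Levels per exon length, in CPM per kb, can be compared between genes, and by this measure Hdac7 (258 CPM per kb in WT), Prmt5 (175), Brd2 (163), Chd1 (131) and Kdm5c (129.8) led the members, while Tet1 (1.55), Hdac9 (0.388) and Kdm4d (0.162) were last. Of the 10 members with the highest WT level, 1 rose (Ncoa3), 2 fell (Prmt5 and Dnmt3a) and 7 did not pass. Of the other 44 members 33 rose and 3 fell. All tested genes showed the same division: at or above the level of the tenth member, 14.9% of 870 genes were higher and 38.5% lower, and below it 48.2% and 24.0% of 3240. Members were also long, with a median exon length of 8548.5 bases against 4463.5 for all tested genes. With the tested genes in 3 equal bins by length, 49.0% of the longest bin were called higher and 21.8% lower, against 32.2% and 33.5% of the shortest bin. Of the members, 2 of 5 rose in the shortest bin, 8 of 12 in the middle bin and 24 of 37 in the longest, with median log2 fold changes of 0.52, 0.37 and 0.33. With the length and GC correction the members had 30 higher and 8 lower genes and a median of 0.26, where all genes had -0.10.

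**Figure D5:**
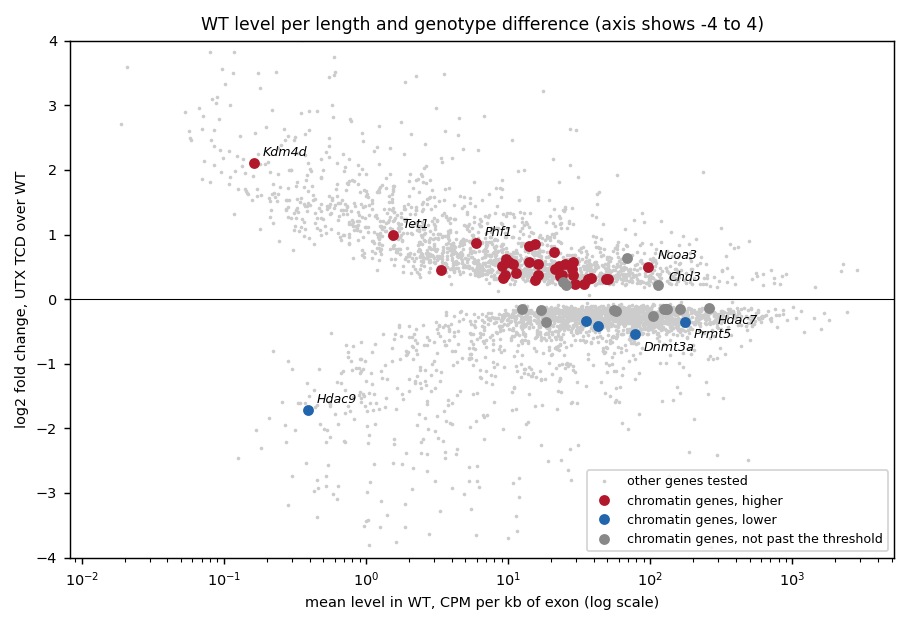
Log2 fold change of UTX TCD over WT (vertical axis, shown from -4 to 4) against the mean WT level in CPM per kb of exon (horizontal log axis), with chromatin genes as large points coloured by the call and other tested genes as small grey points. Risen members lie mostly below 78.0 CPM per kb, and of the 10 members at or above it only Ncoa3 rose.

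Other chromatin genes, which the prefixes do not catch, were called in shares near those of the whole table when pooled, but their lists differed. Some lists hold subunits of the members' complexes, and others hold separate chromatin genes. Of 129 such genes on a fixed list, 39 were in the table and tested, of which 18 rose (46.2%), 10 fell (25.6%) and 11 did not pass. Over all genes 41.1% were higher and 27% lower, and the medians were -0.13 for these genes and -0.15 for all. The list was written with earlier results of these data known. All 4 SWI/SNF genes rose, with Bcl11b, a zinc finger factor needed for T cell identity, at 0.53 ± 0.07 and Pbrm1 at 0.38 ± 0.07. All 5 NuRD, SIN3 and CoREST genes rose, among them Mta3 at 0.58 ± 0.12 and Ing1 at 0.32 ± 0.07. Of 5 Polycomb genes 3 rose, led by the complex 1 subunits Phc3 at 0.92 ± 0.13 and Phc1 at 0.83 ± 0.10, and 1, the complex 2 subunit Eed, fell by 0.24 ± 0.08. Eed was chosen after its values were seen. Among 7 INO80, SRCAP, ISWI and NURF genes, Ep400 and Bptf rose (0.27 ± 0.07 and 0.27 ± 0.08) and 3 fell, and of 8 histone chaperone genes Daxx rose (0.59 ± 0.22) and Asf1a fell (-0.42 ± 0.08). The other 10 writers, erasers and readers had 3 higher and 5 lower genes, at a median of -0.22. The H3K36 methyltransferase gene Ash1l and Prdm2, of a related family, rose by 0.51 ± 0.08 and 0.40 ± 0.07. The 5 lower genes, named after their values were seen, were the H3K79 methyltransferase gene Dot1l (-0.47 ± 0.10), the lysine methyltransferase gene Smyd5 (-0.46 ± 0.15), the JmjC genes Riox2 (-0.37 ± 0.09) and Jmjd6 (-0.28 ± 0.10) and the glycosylase gene Tdg (-0.31 ± 0.12). Without WT replicates 1, 2 and 3 the 18 higher and 10 lower genes became 10 and 2, 10 and 3, and 13 and 3, and without UTX TCD replicate 1 they were 18 and 17. Without WT replicates 1, 2 and 3 the NuRD, SIN3 and CoREST genes had 1, 1 and 3 higher, the INO80, SRCAP, ISWI and NURF genes 0, 0 and 1 higher and 0 lower each time, and the other writers, erasers and readers 1, 2 and 2 lower. Of the histone chaperone genes 5 were lower when UTX TCD replicate 1 was left out and 2 when replicate 2 was. The calls of Ing1 (0.32 and 0.31) and Ep400 (0.27 and 0.25) were lost without WT replicates 1 and 2, and those of Bptf (0.27, 0.26 and 0.28) and Daxx (0.62, 0.57 and 0.57) without any 1 WT library. Daxx was 0.24 without UTX TCD replicate 2 and was not called with gap-centred scaling (0.51) or limma-voom (0.53), and Ep400 was not called with the length and GC correction (0.19). The Polycomb list had 0 lower genes, and so no call of Eed, without WT replicate 1, 2 or 3 or UTX TCD replicate 3, with RLE or upper-quartile scaling, with DESeq2 and with the replicate block.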

How the data were processed

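RNA of activated splenic CD4+ T cells was sequenced from 3 WT and 3 UTX TCD mice. The authors deposited raw read counts for each gene, unnormalized whole numbers. FastQC, HISAT2 and HTSeq were used with build mm10, per the submitters' processing notes. The sources used here give no versions, annotation or strand setting. Genotype and number in the sample titles matched each column to 1 sample. Every row named a gene.

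The 4162 genes entered 1 quasi-likelihood fit by genotype in edgeR 4.0.16 (R 4.3.3), after edgeR's default filter on low counts (at least 10 counts, total at least 15) and TMM scaling, with Benjamini-Hochberg adjustment over the 4118 genes tested. The filter left out 44 genes. Calls are at an adjusted p under 0.05, and a standard error is the size of the log2 fold change over the root of its F statistic. Since the table is a selection by genotype difference, adjusted p-values are smaller than over all genes, and totals are not library depths. The pipeline was tested on simulated data in which few genes changed, as many up as down. That setting is unlike this selected table, so the test does not show how scaling and adjustment behave here. Lengths, GC content and positions came from GENCODE M21, start regions from RefSeq (GRCm38.p6). DESeq2 1.42.0 and limma-voom 3.58.1 served as alternatives, with other scalings, no filter, a replicate block, a length and GC correction, more tests counted, and each library left out.

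Named genes are Kdm6a, the 10 largest rises and falls among called members without overlap, up to 3 called members of each role and direction, a panel of 30 genes (those in the table), and up to 2 called genes of each list of other chromatin genes. The remaining members are named too, for completeness, except 1 that enters the counts and is not reported here by name. The members, lists and tests were chosen with earlier results of these data known.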

Additional observations from a re-analysis of the deposited data

How the results depend on the processing

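The 34 higher and 5 lower members became 13 to 36 and 2 to 7 when 1 library was left out, and the other chromatin genes (18 and 10) 10 to 18 and 2 to 17. Over all genes the 1692 and 1111 calls became 730 to 1824 and 351 to 1458. With the adjustment made over all 22028 annotated protein-coding genes, 14 members were higher and 2 lower, and 10 and 2 of the other chromatin genes. Of all 4118 tested genes 625 were then higher and 296 lower. With gap-centred scaling 10 members were lower, at a median of 0.27, and with the length and GC correction 8, at a median of 0.26. Upper-quartile scaling gave a median of 0.43 and 6 lower other chromatin genes. The members' median lay between 0.31 and 0.41 when 1 library was left out. No member changed sign under any of the 15 alternatives, and Kdm6a was called lower in each (-0.64 to -0.48). As few listed genes lie near 0, unchanged signs are no independent evidence of change. Over all genes, calls were 1692 higher and 1111 lower with TMM, 1742 and 725 with upper-quartile scaling and 1547 and 1832 with gap-centred scaling. DESeq2 gave 37 and 4 members, RLE scaling 36 and 4, limma-voom 34 and 5, and no low-count filter 35 and 5. The sources used here do not say that same-numbered replicates were paired. Deviations of same-numbered samples correlated across genes at 0.28, -0.28 and 0.18, and those of unlike-numbered samples at -0.42 to 0.20. Both kinds held values of both signs, so the correlations do not settle whether samples were paired. With the replicate block 31 members were higher and 5 lower (median 0.35), other chromatin genes had 17 and 9, and Kdm6a was at -0.57. The cause of these changes was not tested beyond the number of tests or samples in each alternative. Depth cannot be judged from a selected table, and Kdm4d and Hdac11, with 30 counts or fewer in each library, are the least precise members.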

Other observations

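The pairs below were chosen after their values were seen, for genes with fold changes of opposite sign. Their ratios separate the genotypes by that choice and are given as values only. The log2 ratio of Tet1 to Dnmt3a CPM, without correction for length, was -5.99, -5.75 and -5.58 in WT libraries and -4.29, -4.24 and -4.17 in UTX TCD libraries, and the SD was 0.20 in WT and 0.06 in UTX TCD. For Hdac5 and Hdac7, of which Hdac7 was not called, the log2 ratio went from -4.36 ± 0.13 in WT to -3.61 ± 0.21 in UTX TCD libraries (SD). Another pair is the thymine glycosylase genes Mbd4 and Tdg. Tdg had 118, 116 and 115 CPM in WT and 103, 77.5 and 99.9 CPM in UTX TCD libraries (-0.31 ± 0.12, edgeR adjusted p = 0.048), and the log2 ratio of Mbd4 to Tdg went from -1.12 ± 0.16 to -0.21 ± 0.36 (SD, n of 3 mice each).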
